A study of Mus musculus with 4 samples.

Results

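The genes described here are 10 of the 12700 genes in the count table of a brain RNA-seq study of Hunter syndrome: Tmem181b-ps, Ttc13, Fam71e1, Izumo4, Ggnbp1, Pcsk4, Gkn3, Syne4, Il3ra and Stc2. They were selected on their levels in these libraries, by log2 ratios of the library labelled knock-out over the one labelled wild type. The pair labelled cerebral cortex had a ratio at or below -0.7. The pair labelled midbrain, diencephalon and hippocampus had one at or above 0.7. Ids, the gene disrupted in the model, has both ratios as well. The selection used the same reads as the ratios given below, so these ratios are a description and were not tested.

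Ids codes for iduronate 2-sulfatase, a lysosomal enzyme that removes sulfate groups from heparan sulfate and dermatan sulfate. Its loss causes Hunter syndrome, in which both polymers build up in lysosomes and the severe forms involve the brain. The 10 genes are not known as a pathway. Several are best known outside the brain: Izumo4, Pcsk4 and Ggnbp1 from male germ cells, Gkn3 from the stomach lining, and Syne4 from the hair cells of the inner ear. Il3ra and Stc2 code for a cytokine receptor chain and a secreted hormone, and Ttc13 and Fam71e1 for proteins of little known function. Tmem181b-ps is annotated as a transcribed pseudogene, a copy of a transmembrane protein gene.

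The study set Ids-/- mice against wild type littermates, all C57BL/6 and aged 9 months, in the cerebral cortex (Cx) and in the joined midbrain, diencephalon and hippocampus (M). CxH and MH are labelled as the Ids-/- libraries, and CxWT and MWT as the wild type ones. Each library was made from RNA pooled from 7 mice. Both areas were taken from every brain, so by their labels CxH and MH share their animals, as CxWT and MWT do. There was 1 library per condition, so variation between mice or pools could not be measured and no p-values are given. The libraries held 16380080 (MWT) to 23475080 (CxH) reads on genes.

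Levels are reads scaled to 1000000 aligned reads of a library (RPM), which compare libraries for 1 gene. Ratios are log2 ratios of RPM, with CxH over CxWT called the Cx ratio and MH over MWT the M ratio. Each ± is the standard error from counting, and intervals are exact 95% Clopper-Pearson intervals. Errors and intervals cover counting of reads only. The positions given for genes come from the GENCODE vM1 annotation of mm9. In pooled tissue, fewer cells that make a transcript and less transcript per cell cannot be told apart.

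The labels of the libraries and their contents differ in ways that touch every result below. Ids had 11890 reads in CxWT and 13752 in MH, against 5211 in CxH and 4496 in MWT, or 354, 368, 135 and 155 RPM in the same order. The library labelled MH, of Ids-/- mice, thus had the most Ids, 2.37 times the level of the library labelled MWT, of wild type mice. Which part of the gene the reads cover could not be seen, because the counts are per gene. Markers of cortical excitatory neurons, 15 of 15 measured, summed to 467 RPM in CxWT, 2426 in MH, 2725 in CxH and 377 in MWT. The 16 measured markers of midbrain and diencephalon summed to 506 RPM in CxWT, 42.9 in MH, 32.4 in CxH and 440 in MWT. Slc6a3, the dopamine transporter, had 16 reads in CxH and 1895 in CxWT, and 19 in MH and 1440 in MWT. By these markers the libraries labelled CxWT and MWT resemble each other, as do CxH and MH, whereas by Ids CxWT resembles MH and CxH resembles MWT. The labels are kept as given, and every direction below is between libraries labelled in this way.

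All 10 genes were lower in CxH than in CxWT, with Cx ratios from -1.62 to -0.76 and a median of -1.05, beside a median of -0.09 over all genes. All 10 were higher in MH than in MWT, with M ratios from 0.72 to 2.49 and a median of 0.97, beside -0.07 over all genes. These counts are fixed by the selection. Of all genes, 11.6% had a Cx ratio at or below -0.7 and 12.4% an M ratio at or above 0.7, and 0.15% had both, which is 19 genes. Among the 7198 genes whose highest read count lay within the range of the 10 genes, 0.153% had both. That is 11 genes, of which 10 are the genes described here, so this share is no independent background. A lower level in CxH together with a higher level in MH, of any size, was found in 15.1% of genes. As a description of ratios the selection used, the counting interval of the Cx ratio lay wholly past -0.7 for Tmem181b-ps, Ttc13 and Fam71e1 and reached inside the limit for the other 7, and that of the M ratio lay wholly past 0.7 for Tmem181b-ps.

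**Figure D1:**
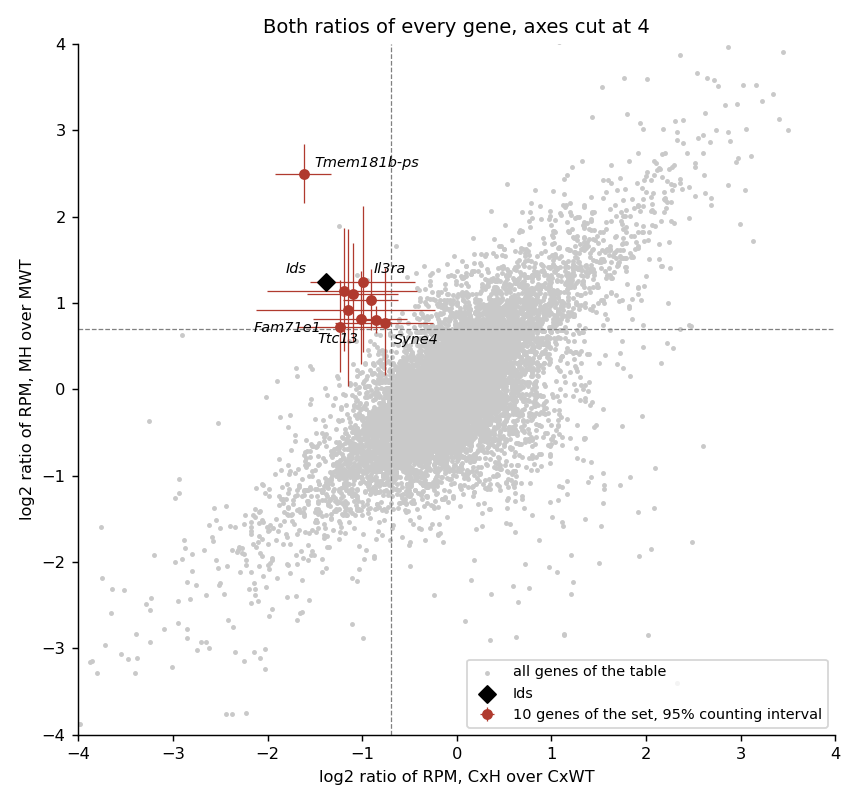
Log2 ratio of RPM in CxH over CxWT (horizontal axis) against MH over MWT (vertical axis) for 12616 genes with at least 20 reads in 1 library (grey), the 10 genes (red, bars are 95% counting intervals) and Ids (black diamond). Dashed lines mark -0.7 and 0.7, and the axes stop at 4. The grey cloud runs from lower left to upper right, and the 10 genes and Ids lie at the upper left, with Tmem181b-ps at the highest M ratio of 2.49.

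Izumo4, Pcsk4 and Ggnbp1 are known from male germ cells. Izumo4 belongs to the family named after the sperm protein that binds the egg, and lies on chr10:80165438-80168127 (mm9, plus strand). It had 261 reads in CxWT and 251 in MH, against 159 in CxH and 95 in MWT, or 7.76, 6.72, 4.13 and 3.28 RPM in the same order. CxWT and MH were close to each other and both stood above CxH and MWT. The Cx ratio was -0.91 ± 0.15 and the M ratio 1.03 ± 0.17. Pcsk4 codes for a proprotein convertase of sperm, an enzyme that cuts precursor proteins at basic residues, and lies on chr10:79784028-79792243 (minus strand). It had 97 reads in CxWT and 98 in MH, against 55 in CxH and 43 in MWT, or 2.89, 2.62, 1.43 and 1.49 RPM in the same order. The levels formed 2 pairs, with a Cx ratio of -1.01 ± 0.24 and an M ratio of 0.82 ± 0.26. A correction of the ratios for GC content and transcript length lowered the M ratio of Pcsk4 to 0.27, under the limit of 0.7.

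Ggnbp1 codes for a partner of gametogenetin, a germ cell protein, and lies on chr17:27110162-27173323 (plus strand). It had only 44 reads in CxWT and 68 in MH, against 22 in CxH and 24 in MWT, or 1.31, 1.82, 0.571 and 0.829 RPM in the same order. MH was the highest library, and the Cx ratio of -1.20 ± 0.38 and M ratio of 1.13 ± 0.34 carry wide counting errors. In the annotation the span of Ggnbp1 overlaps Zbtb9 on the same strand and Bak1 on the opposite one. Zbtb9 had Cx and M ratios of -0.13 and 0.12, and Bak1 of 0.33 and -0.30, so neither had the ratios of Ggnbp1. Whether reads were counted by strand is not given in the sources used here.

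Fam71e1 lies on chr7:51751958-51756856 (plus strand). It had 127 reads in CxWT and 98 in MH, against 62 in CxH and 46 in MWT, or 3.78, 2.62, 1.61 and 1.59 RPM in the same order. CxH and MWT were level and CxWT was the highest library. The Cx ratio was -1.23 ± 0.22, and the M ratio of 0.72 ± 0.26 was the closest of all to the limit of 0.7. With the summed counts of the table as library sizes it became 0.66, and with the correction for GC content and transcript length 0.37, both under the limit.

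Gkn3, Stc2 and Il3ra code for secreted proteins and a receptor. Gkn3, gastrokine 3, is a secreted protein of the gastric mucosa whose transcript also marks arterial endothelial cells of the brain. It lies on chr6:87333262-87338929 (minus strand) and had 108 reads in CxWT and 103 in MH, against 58 in CxH and 37 in MWT, or 3.21, 2.76, 1.51 and 1.28 RPM in the same order. CxWT and MH again lay together above the other two, and the ratios were -1.09 ± 0.23 in Cx and 1.11 ± 0.28 in M. Of the 9 other measured arterial endothelial genes, 2 had the signs of Gkn3, beside 15.1% of all genes, and none reached both limits, beside 0.15%. Their medians were 0.14 in Cx and 0.19 in M. Efnb2, an ephrin of arteries, had 1.14 ± 0.08 and 0.72 ± 0.08.

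Stc2, stanniocalcin 2, is a secreted glycoprotein that blocks the protease acting on binding proteins of insulin-like growth factors, and it is induced in the unfolded protein response. The gene lies on chr11:31257307-31270074 (minus strand). It was the least covered of the 10, with 31 reads in CxWT and 39 in MH, against 16 in CxH and 16 in MWT, or 0.922, 1.04, 0.416 and 0.553 RPM in the same order. The counts of CxH and MWT were equal, and the counting interval of MWT, 0.316 to 0.898 RPM, overlapped those of CxWT and MH. The Cx ratio was -1.15 (-2.12 to -0.24) and the M ratio 0.92 (0.04 to 1.86). Its relative Stc1 had a Cx ratio of -1.03 and an M ratio of -0.30, and Igfbp4, a binding protein of this axis, had 2.08 and 2.05. Of the 6 other measured genes of the stanniocalcin axis, Stc1 and Igfbp4 included, 0 had the signs of Stc2, beside 15.1% of all genes. A count of 0 in a list of this size does not set it apart. Of 18 measured genes of the ATF4 stress response, to which Stc2 belongs, 3 had the signs of the 10 genes, beside 15.1% of all genes, and none reached both limits, beside 0.15%.

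Il3ra codes for the chain of the interleukin 3 receptor that binds the cytokine, and signals together with the common beta chain. It lies on chr14:15179009-15188004 (plus strand) and had 78 reads in CxWT and 52 in MH, against 45 in CxH and 17 in MWT, or 2.32, 1.39, 1.17 and 0.587 RPM in the same order. MH stood nearer to CxH than to CxWT. The Cx ratio was -0.99 ± 0.27 and the M ratio 1.24 ± 0.40, where 17 reads in MWT set the error. The correction for GC content and transcript length took the M ratio to 0.66, under the limit. Csf2ra, the matching chain of the GM-CSF receptor, had ratios of -0.25 and 0.43, and Csf2rb2, a beta chain, 0.67 and 0.00. Microglia express these receptors, and 11 of 16 measured microglial markers had signs opposite to those of the 10 genes, beside 12.1% of all genes, with medians of 1.11 in Cx and -0.66 in M. The markers summed to 354 RPM in CxWT, 416 in MH, 742 in CxH and 582 in MWT, and their part in the ratios of Il3ra was not tested.

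Syne4 codes for nesprin-4, a protein of the outer nuclear membrane that belongs to the LINC complex, the bridge between nucleus and cytoskeleton. It lies on chr7:31099835-31104064 (plus strand), where the annotation used here names it AI428936. It had 80 reads in CxWT and 75 in MH, against 54 in CxH and 34 in MWT, or 2.38, 2.01, 1.40 and 1.17 RPM in the same order. The order of the libraries was that of Gkn3. The ratios were -0.76 ± 0.25 in Cx and 0.77 ± 0.30 in M, and with the scaling factors of edgeR or DESeq2 the Cx ratio no longer reached -0.7 (-0.67 with edgeR). Corrected for GC content and transcript length, its M ratio was 0.48 and under the limit. Among the 10 other measured genes of the LINC complex and nuclear lamina, 1 had the same signs, beside 15.1% of all genes, and none reached both limits, beside 0.15%. Syne1, coding for the giant nesprin-1, had 0.15 and 0.62.

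Ttc13 codes for a protein with tetratricopeptide repeats, short helical units that bind other proteins, and lies on chr8:127195235-127245883 (minus strand). It was by far the best covered of the genes, with 841 reads in CxWT and 1107 in MH, against 531 in CxH and 491 in MWT, or 25.0, 29.6, 13.8 and 17 RPM in the same order. The counting intervals were 23.4 to 26.8, 27.9 to 31.4, 12.6 to 15.0 and 15.5 to 18.5 RPM, so the 4 libraries were all apart, in the order CxH, MWT, CxWT and MH. The ratios were -0.86 ± 0.08 in Cx and 0.80 ± 0.08 in M. Of 30 other measured genes named for these repeats, 6 had the signs of Ttc13, beside 15.1% of all genes, and none reached both limits, beside 0.15%. Their medians were -0.37 in Cx and -0.11 in M. Ttc39a had the lowest Cx ratio of the family, -2.08.

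Tmem181b-ps had the largest Cx and M ratios of the 10 in size. It lies on chr17:6439626-6489526 (minus strand), with Tmem181a, Tmem181c-ps and Tmem181d-ps on the same chromosome. It had 357 reads in CxWT and 602 in MH, against 133 in CxH and 83 in MWT, or 10.6, 16.1, 3.45 and 2.87 RPM in the same order. MH stood highest, 5.62 times as high as MWT, and CxH and MWT overlapped in their intervals. The ratios were -1.62 ± 0.15 in Cx and 2.49 ± 0.17 in M. Tmem181c-ps, the only other copy in the table, had 307 reads in CxWT, 499 in MH, 244 in CxH and 157 in MWT, the same signs, and ratios of -0.53 ± 0.12 and 1.30 ± 0.13.

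The span of Tmem181b-ps also overlaps Gm2792, annotated as protein coding, on the same strand and Gm17692, a long noncoding RNA gene, on the opposite one. Neither was matched in the table, so their reads were not compared.

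The copies are so alike that reads of one can be counted for another. Although the gene is listed as a pseudogene, GENCODE vM1 annotates coding exons in it. Of 14 such exons with at least 60 bases, 13 had 3 further copies within 655.6 kb of chromosome 17, with at most 3 differing bases, and 11 had an identical copy. In windows of 50 bases taken along the exons of Tmem181b-ps, 97.0% had another match with at most 2 mismatches in that stretch, and 74.4% an exact one. The authors allowed up to 2 mismatches and kept the best hit. The values of Tmem181b-ps are therefore uncertain as values of a single gene. The longest coding exon that differs in each of the other annotated copies follows in all 4 copies, 5′ to 3′ on the strand of each gene, with the 2 variable bases in capitals. The copies lie on mm9 at chr17:6298149-6298240 (plus) for Tmem181a, chr17:6447673-6447764 (minus) for Tmem181b-ps, chr17:6636354-6636445 (plus) for Tmem181c-ps and chr17:6825006-6825097 (minus) for Tmem181d-ps. Counted from the 5′ end with the base of Tmem181b-ps first, Tmem181a differs by G75T, and Tmem181c-ps and Tmem181d-ps by C45T.
Tmem181a: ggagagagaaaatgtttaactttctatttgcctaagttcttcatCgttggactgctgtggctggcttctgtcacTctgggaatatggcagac
Tmem181b-ps: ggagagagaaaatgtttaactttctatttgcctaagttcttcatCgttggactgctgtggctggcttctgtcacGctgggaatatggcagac
Tmem181c-ps: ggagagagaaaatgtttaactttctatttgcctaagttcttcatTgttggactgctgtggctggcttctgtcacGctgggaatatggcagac
Tmem181d-ps: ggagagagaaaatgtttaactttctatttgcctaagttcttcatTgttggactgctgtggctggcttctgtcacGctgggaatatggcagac

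**Figure D2:**
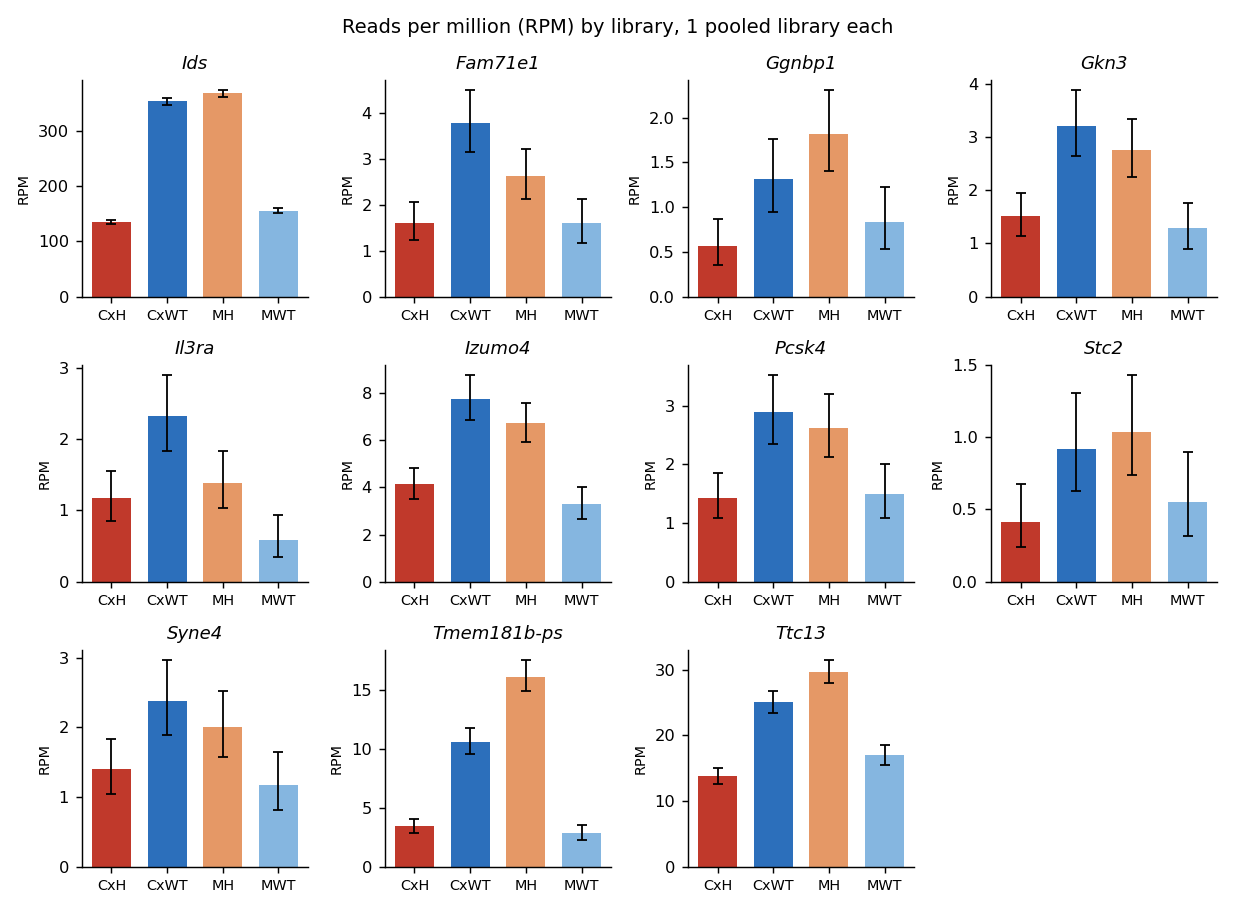
Level in RPM (vertical axis, each panel with its own scale from 0) of Ids and the 10 genes in the libraries CxH, CxWT, MH and MWT. Bars are single pooled libraries and error bars are exact 95% Clopper-Pearson intervals of counting. In every panel CxWT and MH are above CxH and MWT, though for Il3ra MH (1.39 RPM) is close to CxH (1.17 RPM).

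All 10 genes had both CxWT and MH above both CxH and MWT, as 9.91% of all genes did. The selection sets CxWT above CxH and MH above MWT, and the other 2 differences are tied to it. CxWT over MWT minus CxH over MH equals the M ratio minus the Cx ratio, which the selection makes large. Counts of the 10 genes in these 2 ratios are thus raised by the selection, and the shares of all genes beside them are no test. CxH was below MH in 10 genes, with ratios from -2.22 (Tmem181b-ps) to -0.25 (Il3ra) and a median of -0.87. A ratio of CxH over MH at or below -0.7 was found in 8 of the 10 and in 1.24% of all genes. CxWT was above MWT in 10 genes, from 0.56 (Ttc13) to 1.98 (Il3ra), with a median of 1.13. At or above 0.7 were 8 of the 10 and 5.7% of all genes. The genes differ in how the 2 ratios share out: Ggnbp1 had -1.67 ± 0.35 in CxH over MH and 0.66 ± 0.37 in CxWT over MWT, whereas Il3ra had -0.25 ± 0.29 and 1.98 ± 0.39.

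The medians between the libraries that differ in both labels lay nearer to 0. This follows in part from the selection, because MH over CxWT and CxH over MWT add up to the Cx ratio plus the M ratio, which were selected with opposite signs. MH over CxWT had a median of -0.17, with 6 genes below 0 and 4 above, and 1 gene, Il3ra at -0.74 ± 0.26, was past 0.7 in size, beside 15.6% of all genes. Tmem181b-ps had 0.60 ± 0.10 and Fam71e1 -0.53 ± 0.19, and with Ttc13 (0.24 ± 0.07) and Il3ra these were the 4 genes whose interval excluded 0. CxH over MWT had a median of 0.13, with 4 genes below 0 and 6 above, and the correction for GC content and transcript length turned the median to -0.32. Il3ra, at 0.99 ± 0.41, was the 1 gene past 0.7, beside 30.9% of all genes, and with Ttc13 (-0.30 ± 0.09) it was 1 of 2 genes whose interval excluded 0. For the low counts of Stc2 the same interval ran from -1.51 to 0.68, which does not show that the libraries were alike. Ids had 0.06 ± 0.02 and -0.20 ± 0.03 in these pairs.

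**Figure D3:**
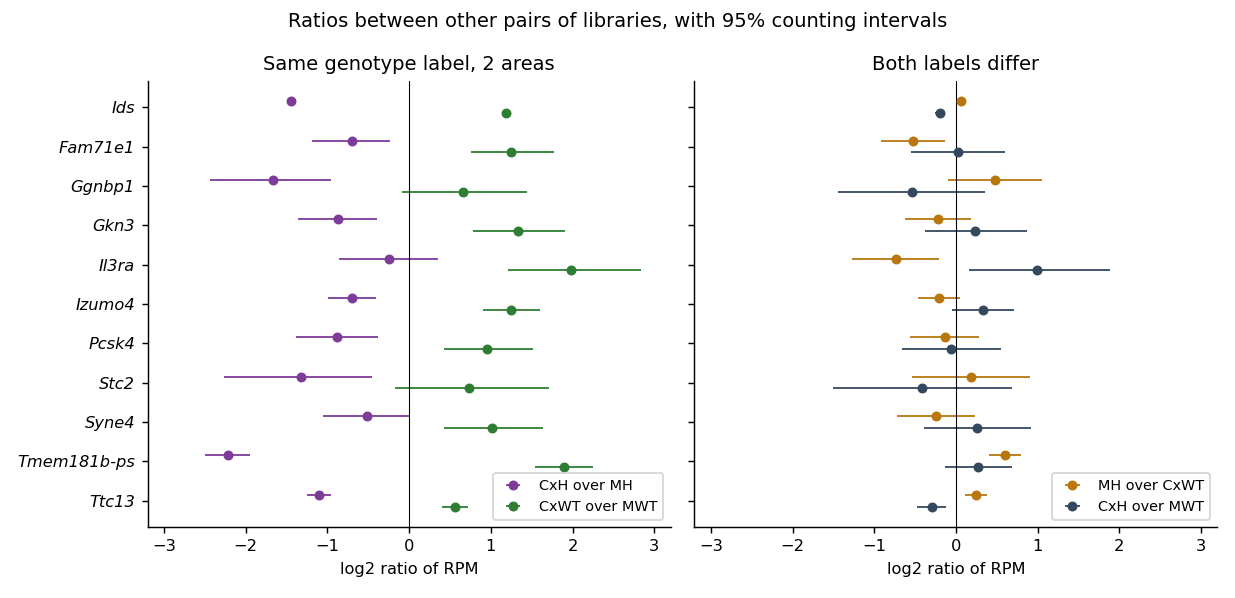
Log2 ratios of RPM (horizontal axis) of Ids and each of the 10 genes for the pairs of libraries with the same genotype label (left, CxH over MH in purple and CxWT over MWT in green) and for the pairs that differ in both labels (right, MH over CxWT in orange and CxH over MWT in dark grey). Bars are exact 95% counting intervals. On the left purple points are below 0 and green points above, and on the right 8 of 10 genes have an interval of CxH over MWT that includes 0.

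The likeness to Ids was measured as the Euclidean distance between log2 RPM over the 4 libraries, each gene centred on its own mean. Stc2 (0.331), Ggnbp1 (0.409), Gkn3 (0.424), Pcsk4 (0.433) and Ttc13 (0.506) were the 5 genes of the table nearest to Ids. The distances are given without counting error. That of the Cx ratio alone was 0.44 for Stc2 and 0.38 for Ggnbp1, larger than the gaps among these 5 distances, so their order is not settled. Il3ra, at 1.03, was the farthest of the 10, at rank 467 of all genes, and Tmem181b-ps, at 0.897, had rank 143. Among genes with at least 100 reads in 1 library the 5 nearest were Gkn3, Ttc13, Pdcl, Izumo4 and Fam71e1. Pdcl, which codes for a chaperone of G protein subunits and is not among the 10, lay at 0.512, with 1481 reads in CxWT, 1472 in MH, 769 in CxH and 772 in MWT and an M ratio of 0.56, short of 0.7. These distances use 4 libraries and the ratios that selected the genes, and say nothing of shared control.

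Outside the set, 4 genes met both limits with at least 20 reads in 1 library: Ids, Hba-a1, Rmrp and Mansc4. Hba-a1, an alpha globin gene of red cells, had 8261 reads in CxWT, 6566 in MH, 4539 in CxH and 2028 in MWT, with ratios of -1.06 ± 0.03 and 1.33 ± 0.04. Alpha globin genes come in near-identical copies, so its reads may be shared with another copy. Rmrp, the RNA part of a ribonuclease, had 37 reads in CxWT, 48 in MH, 18 in CxH and 10 in MWT, and Mansc4, a gene named for its MANSC domain, had 32, 28, 19 and 9 reads in the same order. A further 5 genes met the limits with at most 9 reads in any library. Just inside the limits lay Fam71e1 (M ratio 0.72) and Syne4 (Cx ratio -0.76). Just outside, among genes with at least 100 reads in 1 library, lay Tbc1d7 (-0.71 and 0.65), Slc16a11 (-0.64 and 1.66) and Mrpl3 (-0.85 and 0.64). The limit thus separates genes whose counting intervals overlap.

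The families and markers tied to the 10 genes were looked up as well. None of the other members of the convertase, LINC complex, common beta chain receptor, stanniocalcin, gametogenetin, tetratricopeptide, germ cell or endothelial lists met both limits, which 0.15% of all genes met, so that counts of 0 in lists of this size do not set them apart. Of 8 other proprotein convertases and inhibitors 1 had the signs of Pcsk4, beside 15.1% of all genes. Furin, the general convertase of the secretory pathway, had 0.29 and 0.94. Of 50 germ cell genes 8 were in the table, 2 of them with the signs of the set, beside the same 15.1%, and their medians were -0.05 in Cx and 0.27 in M. Spag6, of the sperm flagellum, had 19 reads in CxWT, 90 in MH, 104 in CxH and 18 in MWT, so it followed the pairs of the area markers and not those of the 10 genes. The 2 measured red cell genes, Hba-a1 and Alas2, summed to 254 RPM in CxWT, 186 in MH, 125 in CxH and 77.1 in MWT, of which Hba-a1 made up 246, 176, 118 and 70.1 RPM. Alas2, the first enzyme of heme synthesis in these cells, had a Cx ratio of -0.21 ± 0.12, less than 2 counting errors from 0, and an M ratio of 0.46 ± 0.13. The part of blood in the ratios was not tested.

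**Figure D4:**
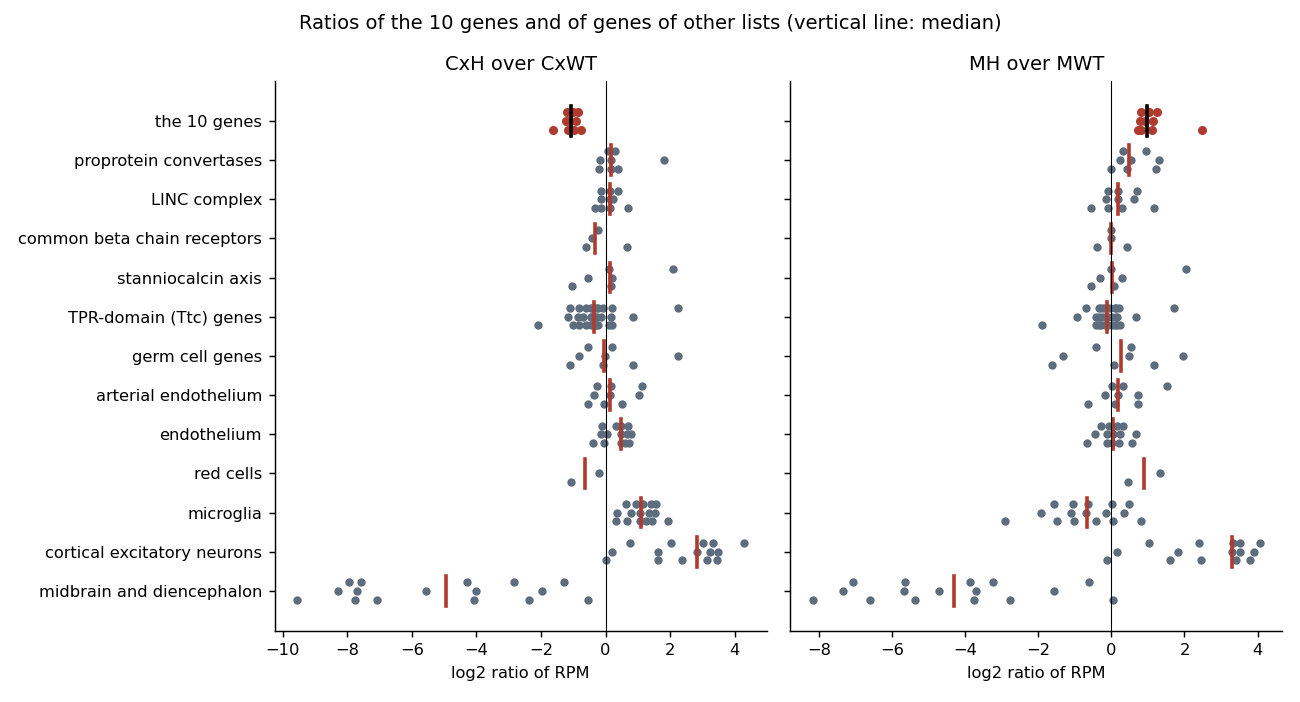
Log2 ratios of RPM (horizontal axes) of CxH over CxWT (left) and MH over MWT (right) for the 10 genes (red points) and for single genes of 12 other lists without the 10 genes (grey points). Vertical lines are medians. The 10 genes have medians of -1.05 and 0.97, the medians of the cortical and of the midbrain markers keep their sign between the panels, and the microglial markers have medians of 1.11 and -0.66.

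The 10 genes lie on 7 chromosomes, with pairs on chromosomes 7, 10 and 17. Per length of transcript, all 10 had a mean level below the median of the table, from 0.186 to 6.51 RPM per kilobase against 6.59. Of the 10, 9 had fewer reads than the median gene, whose mean count was 686.6. The GC content of their transcripts was 50.6% to 65.1% with a median of 55.6%, and 8 of 10 were above the median of 50.7% over all genes. After the ratios were corrected for GC content and length, 6 of the 10 still met both limits. The 4 that did not, Fam71e1, Il3ra, Pcsk4 and Syne4, were under 0.7 in the M ratio.

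The 3 nearest genes of the table on each side of each of the 10 were compared with them, 60 genes in all. None met both limits, which 0.15% of all genes met, so a count of 0 does not set the neighbours apart. The signs of the set were found in 13, beside 15.1% of all genes. Their medians were 0.03 in Cx and 0.19 in M. Emc10, 0.059 kb from Fam71e1, had ratios of 0.42 and 0.62. Arv1, 0.156 kb from Ttc13, had -0.16 and -0.11, and Reep6, 0.455 kb from Pcsk4, had 0.72 and 1.30. Ids had 6 such neighbours on chromosome X, and none had its signs, beside 15.1% of all genes, too few neighbours to set them apart.

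**Figure D5:**
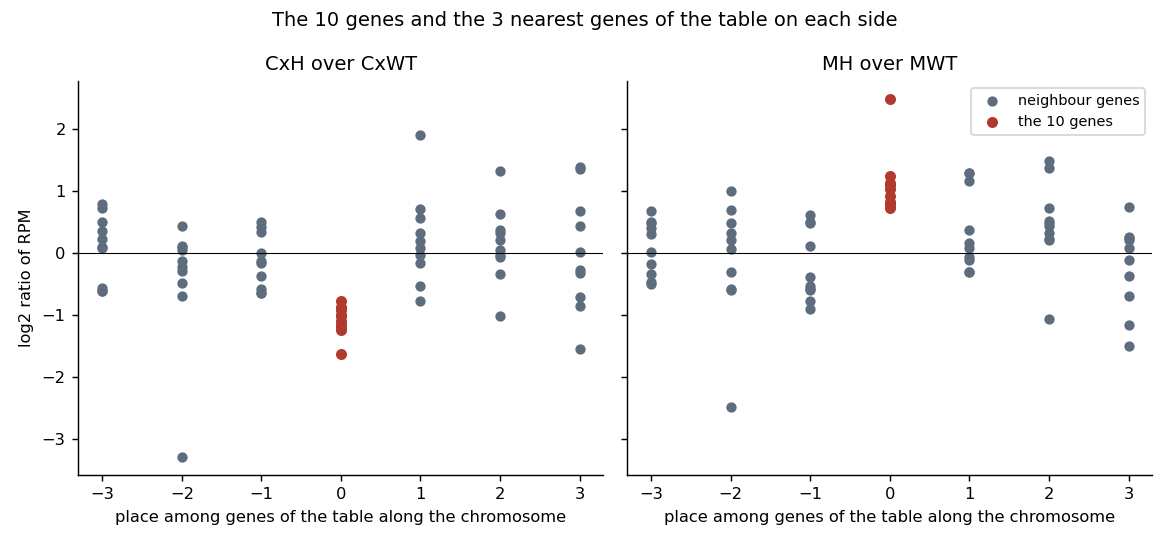
Log2 ratios of RPM (vertical axis) of CxH over CxWT (left) and MH over MWT (right) for the 10 genes (red, at 0) and for the 3 nearest genes of the table on each side (grey), by their place along the chromosome. Each column of grey points holds 10 genes, which spread over both sides of 0, with medians of 0.03 and 0.19 over all 60.

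Promoter windows, from 250 bases before to 50 after an annotated start (RefSeq, GRCm38.p6), were given for 7 of the 10 genes, with 2 windows for Ggnbp1. Pcsk4, Izumo4 and Tmem181b-ps had no entry. The 8 windows had a median GC content of 60.7%, with 7 above the median of 52.7% over 32851 windows. They shared no motif among those searched on both strands. The TATA box, TATAAA, was in 0 of the 8 windows and in 13.6% of all windows, and the E-box CACGTG, which TFEB reads in lysosomal genes, in 0 and 7.15%. The GC box GGGCGG was in the windows of Fam71e1, Il3ra and Ggnbp1 and in 35.7% of all windows, and CCAAT in those of Stc2 and Syne4 and in 37.4%. Fam71e1 had a full cAMP response element, TGACGTCA, as 1.79% of all windows did, and the shorter site TGACG, which the full element contains, was in the windows of Fam71e1 and Syne4 and in 20.8% of all. A match is a run of letters and not a bound site.

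The 250 bases before the start of 4 genes show a window with each of the matched motifs and, for Ttc13, the best covered gene, one with none, with matches to the TATA box, CCAAT box, GC box, E-box and full cAMP response element on either strand in capitals. They are written 5′ to 3′ on the strand of the gene and lie, on GRCm38.p6 and not on mm9, at chr7:44496345-44496594 (plus) for Fam71e1, chr14:14346245-14346494 (plus) for Il3ra, chr11:31370062-31370311 (minus) for Stc2 and chr8:124721973-124722222 (minus) for Ttc13. Fam71e1 shows a GC box and the cAMP response element, Il3ra several GC boxes on both strands, Stc2 a CCAAT box on the opposite strand, and Ttc13 none of these.
Fam71e1: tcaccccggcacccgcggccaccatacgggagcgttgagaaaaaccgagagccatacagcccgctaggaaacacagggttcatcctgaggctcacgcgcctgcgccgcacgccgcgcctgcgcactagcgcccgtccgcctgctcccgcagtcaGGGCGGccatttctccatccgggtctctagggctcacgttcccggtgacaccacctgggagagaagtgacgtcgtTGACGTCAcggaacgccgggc
Il3ra: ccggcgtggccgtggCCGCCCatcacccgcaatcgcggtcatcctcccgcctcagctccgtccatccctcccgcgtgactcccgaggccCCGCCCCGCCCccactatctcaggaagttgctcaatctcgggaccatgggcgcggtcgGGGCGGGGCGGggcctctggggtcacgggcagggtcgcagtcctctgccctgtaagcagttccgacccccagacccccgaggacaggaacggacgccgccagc
Stc2: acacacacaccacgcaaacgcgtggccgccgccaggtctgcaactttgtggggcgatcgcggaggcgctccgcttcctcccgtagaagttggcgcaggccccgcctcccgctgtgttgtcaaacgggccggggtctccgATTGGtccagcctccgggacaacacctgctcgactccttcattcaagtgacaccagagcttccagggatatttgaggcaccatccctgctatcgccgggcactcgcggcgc
Ttc13: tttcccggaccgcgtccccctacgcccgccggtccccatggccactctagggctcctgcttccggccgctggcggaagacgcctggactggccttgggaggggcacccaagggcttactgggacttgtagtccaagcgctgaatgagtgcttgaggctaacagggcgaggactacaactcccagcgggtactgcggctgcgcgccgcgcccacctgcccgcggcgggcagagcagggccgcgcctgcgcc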

How the data were processed

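The authors sequenced polyA RNA pooled from 7 mice per library on a SOLiD 3 Plus instrument, aligned the reads to the NCBI37/mm9 genome with PASS (best hit, at most 2 mismatches) and deposited counts, which are reads aligned to a single gene, without normalization. Their methods state a filter of over 50% coverage of a gene's length, which does not hold in every library of the deposited table, where 27 to 35 genes per library have 0 reads. The gene annotation they used is not given in the sources used here. The 10 genes, the lists and the comparisons were chosen with earlier results of these data known. RPM used the aligned reads the study gives for each library. A count of 0 was set to 1 for ratios. With 1 library per condition no test was run, and a floor of 3 reads is 0.0779 to 0.104 RPM. Of 12700 genes, 12425 were matched to GENCODE vM1 (mm9). Genes named are the 10, Ids, those meeting or closest to both limits, the nearest to Ids and up to 4 per list. The ratio step was tested on simulated data. Alternatives were other library sizes (edgeR 4.0.16 TMM, DESeq2 1.42.0), 0.5 added to counts, filters, a limit of 1, and a GC and length correction. Python 3.11.15, scipy 1.17.1, numpy 2.4.6 and R 4.3.3 were used.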

Additional observations from a re-analysis of the deposited data

Results flagged for a closer look

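The ratios of Ids and of each of the 10 genes had opposite signs between the pairs labelled Cx and M, by the selection for the 10. The Cx ratio minus the M ratio was -2.63 for Ids, -4.11 for Tmem181b-ps, -2.33 for Ggnbp1, -2.23 for Il3ra, -2.20 for Gkn3, -2.07 for Stc2, -1.95 for Fam71e1, -1.94 for Izumo4, -1.83 for Pcsk4, -1.66 for Ttc13 and -1.54 for Syne4. With 1 library per condition these differences were not tested. They stand beside Ids reads that go against the label of MH and MWT. The area markers set CxH with MH and CxWT with MWT, so the differences cannot be read as differences between areas.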

How the results depend on the processing

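Under 5 alternatives in each of 4 comparisons, 198 of 200 recomputed ratios of the 10 genes stayed within their counting interval, and none changed sign. The exceptions came with the GC and length correction: the M ratio of Pcsk4 (0.27) and CxH over MH of Izumo4 (-1.01). Other library sizes shift all ratios of a comparison by the same amount, small beside most of the intervals, so the total of 198 is a weak check. The count of the 10 genes that met both limits was 10 with 0.5 added to every count and 9 with column totals, TMM or DESeq2 factors, and went to 6 with the GC and length correction. With at least 100 reads in 1 library it was 5, because Ggnbp1, Il3ra, Pcsk4, Stc2 and Syne4 have fewer, and 7 genes of the table met both limits instead of 19. The same filter leaves 5 genes with CxWT and MH above CxH and MWT. With a limit of 1 in place of 0.7, 3 of the 10 (Tmem181b-ps, Gkn3 and Ggnbp1) and 11 genes of the table met both, and 719 genes of the table were at or below it in Cx and 879 at or above it in M. The median of CxH over MWT, 0.13, was -0.32 with the GC and length correction. TMM moved the median of all genes from -0.09 to 0.00 in Cx. Leaving out a library was not run, since each condition has 1. No paired analysis was possible because the values come from no test. By the labels, CxH and MH share mice, as CxWT and MWT do. If so, a block for mice in a ratio between genotypes is the same as the genotype label. Counts of 16 to 39 reads limit Stc2, and of 17 to 78 reads Il3ra.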
